A study of Mus musculus with 10 samples.

Results

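The microRNAs (miRNAs) described here are 8 mature sequences best known from the nervous system: miR-9-5p, miR-9b-3p, miR-124-3p, miR-7a-5p, miR-7a-1-3p, miR-338-3p, miR-338-5p and miR-218-5p. They were chosen by name, as 8 of the 721 miRNAs in the 2 tables of the series, and all 8 were listed in both tables. Their reads were measured by small RNA sequencing in small extracellular vesicles (sEV), membrane-bound particles that cells shed with RNA inside. The vesicles came from C57BL/6J mice, from brown adipose tissue (BAT), the fat depot that burns fuel to make heat, or from plasma. The 10 libraries comprise 3 of Sed BAT, 3 of Exe BAT, 2 of Sed plasma and 2 of Exe plasma, with Exe read as exercised and Sed as sedentary. The labels write 90 min sessions, 2 a day over 4 weeks, on every sample, so Sed is read as untrained from its name alone. No genotype change or further agent is named for any group. The age of the mice, the kind of exercise, the number of animals and any pooling of animals are not analysed here, since no label gives them. The labels do not say whether replicates are different animals, and each p-value reflects the spread among these libraries alone, which could be technical.

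A mature miRNA guides a silencing complex to messenger RNAs mainly through its seed, the stretch of bases near its 5′ end that pairs with the target. Each hairpin precursor can release an arm from its 5′ side (5p) and one from its 3′ side (3p), and often one arm is kept more than the other. miR-9 is abundant in neural progenitors and in the brain, and miR-124 is a hallmark of neurons, where it represses non-neuronal genes. miR-7 is enriched in brain and in hormone-secreting cells such as those of the pancreatic islets. miR-338 promotes the maturation of oligodendrocytes, the myelin-forming cells of the brain, and miR-218 marks motor neurons and lies within the Slit genes of axon guidance. Brown fat is reached by sympathetic nerve fibres, whose cell bodies lie outside the tissue.

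The mature sequences below, from RefSeq (GRCm38.p6), are printed 5′ to 3′ with the seed, bases 2 to 8, in capitals. Seeds bear on the targets, and overlaps between whole sequences bear on which reads can be told apart.
miR-9-5p: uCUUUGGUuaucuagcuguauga
miR-9b-3p: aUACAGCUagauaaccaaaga
miR-7a-5p: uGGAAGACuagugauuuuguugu
miR-7b-5p: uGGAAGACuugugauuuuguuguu
miR-7a-1-3p: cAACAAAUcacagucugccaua
miR-338-3p: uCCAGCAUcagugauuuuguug
miR-338-5p: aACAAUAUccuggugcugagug
miR-218-5p: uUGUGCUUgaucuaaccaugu
The relative miR-7b-5p is shown because it has the seed of miR-7a-5p and differs from it by A10U, counted from 1 at the 5′ end, plus 1 more base at the 3′ end. No other seed printed here is shared with another listed miRNA that has a sequence in the RefSeq table (605 of 721 have one). miR-9b-3p, of 21 bases, pairs as a reverse complement with miR-9-5p, of 23 bases, along its whole length.

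In genome build GRCm38.p6 the miR-9-5p sequence lies at 3 places on the plus strand: at chr3:88215613-88215635 (Mir9-1, in an intron of the lincRNA Gm3764), at chr7:79505279-79505301 (Mir9-3, in an intron of Mir9-3hg) and at chr13:83738821-83738843 (Mir9-2, in an exon of the lincRNA C130071C03Rik). miR-9b-3p is annotated on the minus strand of the same 3 loci, for example at chr3:88215613-88215633. Whether the authors counted by strand is not given in the sources used here, and without strand the reads of miR-9-5p and miR-9b-3p cannot be told apart. Their values are therefore uncertain as a split between the pair. miR-7a-5p comes from Mir7-1 (chr13:58392841-58392863, minus strand, in an intron of Hnrnpk) and from Mir7-2 (chr7:78888295-78888317, plus strand, in no annotated host gene). miR-7a-1-3p comes from the Mir7-1 hairpin alone (chr13:58392800-58392821, minus strand). miR-338-3p (chr11:120014781-120014802) and miR-338-5p (chr11:120014816-120014837) are the arms of Mir338, on the minus strand in an intron of Aatk, a kinase gene expressed in the nervous system. miR-218-5p lies in introns of Slit2 (chr5:48223966-48223986) and Slit3 (chr11:35616840-35616860), both on the plus strand.

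miR-7a-5p and miR-338-3p also end in nearly the same letters although their seeds differ. The run they share, of 13 bases, is in capitals here.
miR-7a-5p: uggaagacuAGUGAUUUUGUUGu
miR-338-3p: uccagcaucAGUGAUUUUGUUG

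BAT libraries held 104064 to 172279 miRNA reads and plasma libraries 1209116 to 1798169, so 3 reads equal 19.0 to 27.4 units of CPM (read counts scaled to a common library size of 1000000) in BAT and 1.61 to 3.49 CPM in plasma. CPM values are on the trimmed-mean (TMM) scale of their own table unless another scale is named. The 8 miRNAs together made up little of each library: 0.0861 to 0.127% of miRNA reads in Sed BAT, 0.0883 to 0.119% in Exe BAT, 0.170 to 0.233% in Sed plasma and 0.142 to 0.254% in Exe plasma. In the Sed plasma libraries 69.8 and 52.8% of miRNA reads were miR-451a, made in red blood cells, against 11.1 and 13.1% in Exe plasma. A second number deposited beside each plasma read count divided into the reads 3.31 and 21.4 times in the Sed plasma libraries and 1.41 and 1.64 times in Exe plasma, over all miRNAs. The BAT vesicles carried the brown fat marker list (6 miRNAs, all listed) at 6.72 to 23.0% of reads in Sed and 23.2 to 30.1% in Exe. In plasma 5 of those 6 were listed, at 0.163 to 0.502% in Sed and 0.0944 to 0.419% in Exe, where the defining marker miR-193b-3p was at 0 reads.

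In BAT vesicles none of the neural miRNAs passed the test between Exe and Sed. The filter on low counts left 3 of 8 in the edgeR fit, miR-7a-5p, miR-338-3p and miR-218-5p, and 0 of these 3 had an adjusted p under 0.05, beside 45 of 199 miRNAs tested in all (22.6%). At an unadjusted p under 0.05 the count was again 0 of 3, beside 38.7% of all tested, and DESeq2 and limma-voom also called 0 of the 3. The median log2 fold change of the 3 was 0.28, against -0.06 over all 199.

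miR-218-5p had the most reads of the 8 in every Sed BAT library. Its CPM was 654, 422 and 411 in Sed BAT and 271, 306 and 480 in Exe BAT. The groups overlapped through the highest Exe library, and the log2 fold change was -0.49 ± 0.31 (SE, n = 3 per group, edgeR adjusted p = 0.261). miR-7a-5p gave 397, 324 and 311 CPM in Sed BAT and 350, 560 and 430 in Exe BAT. These groups overlapped too, with a log2 fold change of 0.38 ± 0.26 (SE, n = 3 per group, edgeR adjusted p = 0.317).

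miR-338-3p, the arm of Mir338 with more reads in BAT, was at 57.7, 75.4 and 64.0 CPM in Sed BAT and 78.7, 84.6 and 75.8 in Exe BAT. All 3 Exe libraries lay above all 3 Sed libraries, by little, and the log2 fold change was 0.28 ± 0.34 (SE, n = 3 per group, edgeR adjusted p = 0.592). Groups that do not overlap were found for 1 of the 3 miRNAs tested here and for 44.2% of all 199 tested. The other arm, miR-338-5p, had 2, 3 and 3 reads in Sed BAT and 5, 4 and 4 in Exe BAT, too few for the fit (exact permutation p = 0.3).

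The remaining members were also below the filter in BAT and were compared with an exact two-sided permutation test of CPM, whose smallest p for 3 against 3 is 0.1. miR-7a-1-3p, the 3p arm of Mir7-1, gave 8, 4 and 4 reads in Sed BAT and 6, 17 and 10 in Exe BAT. In CPM the means were 39.3 ± 10.8 in Sed and 75.4 ± 31.0 in Exe (SD, n = 3 each), with groups that touched without overlapping (highest Sed 51.3, lowest Exe 52.5) and exact p = 0.1. miR-9b-3p had 11, 14 and 6 reads in Sed BAT and 8, 17 and 10 in Exe BAT (exact permutation p = 0.8), and miR-9-5p had 3, 2 and 1 against 2, 4 and 1 (exact permutation p = 0.9). miR-124-3p, the neuronal hallmark, had no read in any Sed BAT library and 2, 1 and 0 reads in Exe BAT (exact permutation p = 0.4). Its 0 reads in Sed BAT allow up to 19.2 to 27.4 CPM per library. A difference in miR-9-5p or miR-124-3p was not detectable at this depth.

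**Figure D1:**
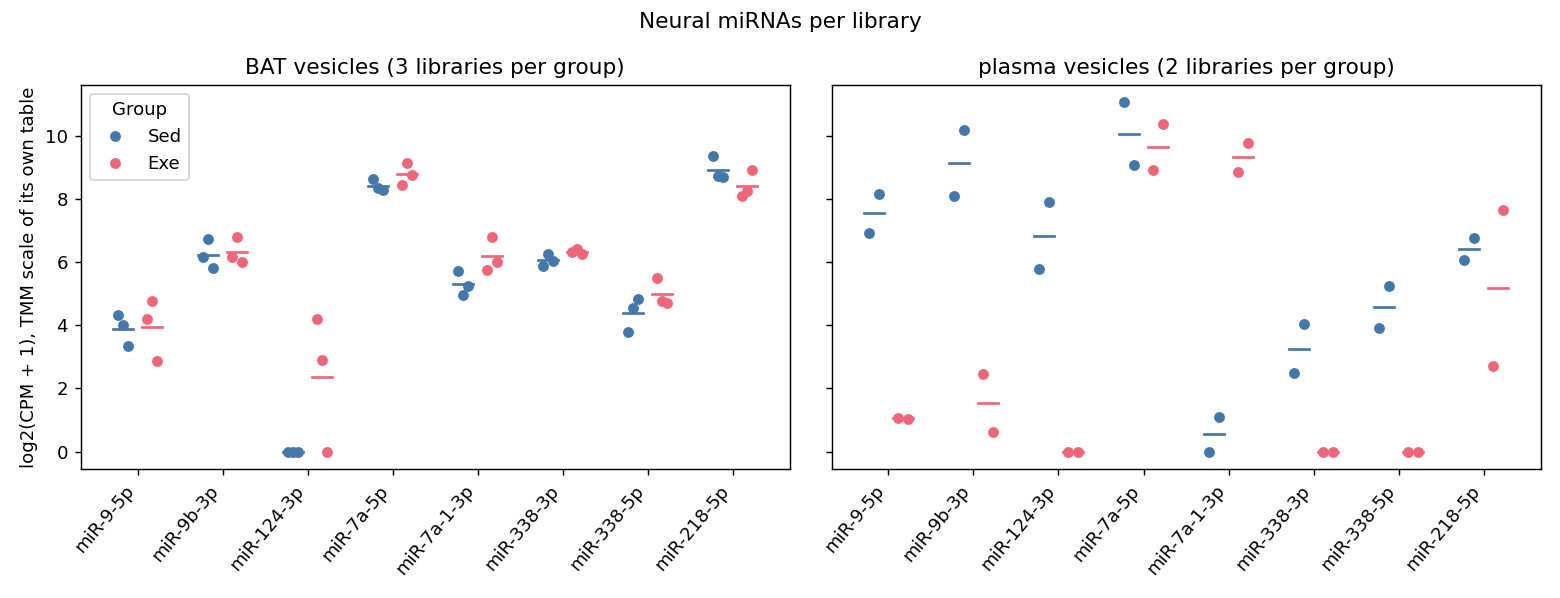
Levels of the 8 neural miRNAs in every library, as log2(CPM + 1) on the TMM scale of each table, for BAT vesicles (left, 3 libraries per group) and plasma vesicles (right, 2 per group). Points are libraries and bars are group means on the log2(CPM + 1) scale. The Sed and Exe points lie close together in BAT, while in plasma miR-9-5p, miR-9b-3p, miR-124-3p and both miR-338 arms lie lower in Exe and miR-7a-1-3p lies higher.

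In plasma vesicles the neural miRNAs differed between the groups in opposite directions. The reads of miR-9-5p, miR-9b-3p, miR-124-3p and both arms of miR-338 were at or near 0 in both Exe libraries, whereas those of miR-7a-1-3p were near 0 in both Sed libraries and at least 835 in Exe. For miR-7a-5p and miR-218-5p the groups overlapped. With 2 libraries per group edgeR called none of the 182 miRNAs tested (0%), so 0 of the 7 members tested had an adjusted p under 0.05. An unadjusted p under 0.05 was reached by 5 of the 7, beside 60 of 182 in all (33%). Other tools called more: DESeq2 called 59 of 182 and 4 members (miR-9-5p, miR-9b-3p and miR-124-3p lower and miR-7a-1-3p higher in Exe), and limma-voom called 40 and 5 members (the same 4 and miR-338-5p, lower). Groups that do not overlap were found for 5 of the 7 tested, beside 59.3% of all tested (28.6% with Exe higher and 30.8% with Exe lower). The fitted log2 fold changes of 5 of the 7 were below 0, beside 85 of 182 in all, with a median of -7.44, or -5.16 with the miRNAs at 0 in Exe set at their bound, against 0.32 over all tested. A miRNA near 0 in one group enters the fit only through the other group, so these counts over the tested members are descriptions.

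miR-9b-3p had the most reads of the members that were lower in Exe plasma. It gave 236 and 2051 reads in the Sed plasma libraries and 8 and 1 in Exe plasma, which is 274 and 1162 CPM against 4.46 and 0.535. Both Sed libraries lay far above both Exe libraries, and the second Sed library lay well above the first. The log2 fold change was -8.13 ± 2.49 (SE, n = 2 per group, edgeR adjusted p = 0.0915). Without the first Sed plasma library the log2 fold change was -8.79 (edgeR adjusted p = 0.0112), a fit in which the lone Sed library is assumed to vary as the Exe libraries do.

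miR-9-5p, on the opposite strand of the same loci, gave 104 and 505 reads in Sed plasma and 2 and 2 in Exe plasma. Its mean was 203 ± 117 CPM in Sed and 1.09 ± 0.03 in Exe (SD, n = 2 each), without overlap, and the difference did not pass the test (log2 fold change -7.44 ± 2.31 SE, edgeR adjusted p = 0.0915). miR-9b-3p made up 69.4 and 80.2% of the reads of this complementary pair in the Sed plasma libraries and 78.6 to 90.9% in the 6 BAT libraries.

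miR-124-3p had 46 and 417 reads in Sed plasma and none in either Exe plasma library. Set against a floor of 3 reads over the Exe group, it was at least 215-fold lower in Exe plasma (edgeR adjusted p = 0.0915, n = 2 per group). Without the second Sed library the bound was 65.3-fold, and without the first or the second Exe library 110-fold and 105-fold. The arms of Mir338 showed the same order. miR-338-5p gave 12 and 65 reads in Sed plasma and 0 in both Exe libraries, at least 35.8-fold lower (edgeR adjusted p = 0.0899), and miR-338-3p gave 4 and 27 reads against 0 and 0, at least 14.4-fold lower. Without the second Sed library these bounds were 17.03-fold and 5.68-fold, and with 1 Exe library left out 17.5 to 18.3-fold and 7.06 to 7.36-fold. miR-338-3p was below the filter, and the exact permutation p of 0.333 is the smallest that 2 against 2 allows.

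Among these 5 miRNAs the second Sed plasma library always had more reads than the first, 3065 against 402 in sum. They made up 17.6 and 73.0% of the reads of the 8 neural miRNAs in the Sed plasma libraries, against 0.582 and 0.0669% in Exe plasma and 12.7 to 25.2% in BAT. The second deposited values of the 5 summed to 117 and 748 in Sed plasma and to 10 and 3 in Exe plasma, so the order of the groups was the same in both numbers. In bulk vesicle RNA, fewer vesicles of one source and less of a miRNA in each vesicle cannot be told apart.

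The arms of miR-7a behaved differently from each other in plasma. miR-7a-1-3p had 0 and 2 reads in Sed plasma and 835 and 1637 in Exe plasma. Over the groups this is a ratio of 886 (95% counting interval 245 to 7320) in CPM, higher in Exe, with both Exe libraries far above both Sed libraries. It did not pass the test at 2 libraries per group (edgeR adjusted p = 0.0899). Without the second Sed plasma library, when Sed plasma had no read, it was at least 194-fold higher in Exe. The adjusted p was 0.0281 in that fit and 0.0488 without the first Exe plasma library, where the spread comes from the group with 2 libraries and the lone library is assumed to share it.

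miR-7a-5p, the guide arm, gave 1827 and 941 reads in Sed plasma and 864 and 2472 in Exe plasma. In CPM these are 2123 and 533 against 482 and 1323, so the groups overlapped, and the log2 fold change was -0.56 ± 1.34 (SE, n = 2 per group, edgeR adjusted p = 0.780). Its sign turned with library size alone as the scale, to 0.17, and without the first Sed (0.87) or the first Exe plasma library (0.10). Of the summed reads of both arms, miR-7a-5p held 100% and 99.8% in Sed plasma, 50.9% (95% exact interval 48.4 to 53.3%) and 60.2% (58.6 to 61.7%) in Exe plasma, and 83.5 to 91.5% in BAT. The Sed plasma libraries thus lay above, and the Exe plasma libraries below, all 6 BAT libraries in this share.

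**Figure D2:**
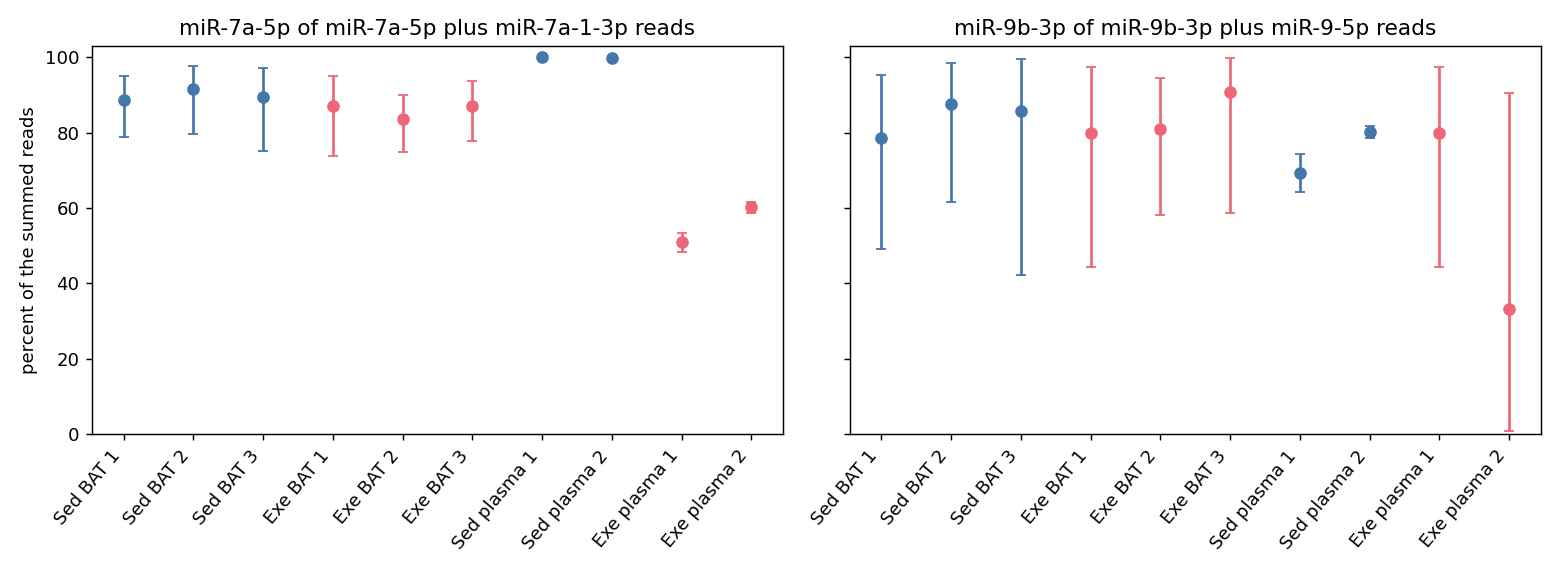
Share of reads within pairs of neural miRNAs in each of the 10 libraries, in percent, with exact 95% intervals that cover counting error only: miR-7a-5p of both miR-7a arms (left) and miR-9b-3p of miR-9b-3p plus miR-9-5p (right). The miR-7a-5p share is 50.9 and 60.2% in Exe plasma and at least 83.5% in the other 8 libraries, while the intervals of the miR-9b-3p share are wide in BAT and in Exe plasma.

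miR-375-3p, the defining marker of pancreatic islet and other hormone-secreting cells, was higher in Exe plasma, as was miR-7a-1-3p. It had 123 and 75 reads in Sed plasma (0.00917 and 0.00417% of miRNA reads) and 23766 and 43260 in Exe plasma (1.97 and 2.45%), against 0 to 2 reads in BAT. It was the only one listed of the 2 markers of that list, and its part in the miR-7a result was not tested. Of all miRNAs tested in plasma, 28.6% were higher in Exe without overlap. The leukocyte list (7 of 7 listed) summed to 0.158 to 0.211% in Sed plasma and 2.17 to 2.48% in Exe plasma. Except in the second Sed library, most of that was miR-150-5p, a lymphocyte miRNA named after its values were seen. It was at 0.211 and 0.0534% in Sed and 1.90 and 1.85% in Exe, and the other 6 summed to 0.105% in the second Sed library. The defining markers miR-142a-3p (0 and 24 reads in Sed plasma, 1 and 0 in Exe plasma) and miR-223-3p (0 and 1818 against 3998 and 1666) overlapped between the groups. The red cell list (7 of 7 listed) summed to 52.8 to 70.1% in Sed plasma and 14.1 to 15.0% in Exe plasma. That order was set by miR-451a, and the other 6 together had the opposite one, at 0.333 and 0.0156% in Sed plasma against 3.01 and 1.84% in Exe plasma. The epithelial list (7 of 7 listed) summed to 0.121 to 0.131% in Sed plasma and 0.0645 to 0.206% in Exe plasma, where miR-205-5p was at 0. The part of these lists in the plasma results was not tested.

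miR-218-5p differed widely between the libraries of a plasma group. It gave 57 and 188 reads in Sed plasma and 10 and 370 in Exe plasma, so that the Exe libraries lay below and above both Sed libraries (66.2 and 107 CPM against 5.57 and 198). The log2 fold change was 0.24 ± 2.12 (SE, n = 2 per group, edgeR adjusted p = 0.941). Without the second Exe plasma library it was -3.33, so that its direction rests on that library.

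The second plasma number was compared with the reads as well. For the neural miRNAs with more than 2 reads, reads per second value ran from 1.24 to 6.50 in Sed plasma and from 1 to 1.03 in Exe plasma, and the 2 reads of miR-7a-1-3p in the second Sed library had a second value of 2. For miR-7a-5p the second values were 1469 and 242 in Sed plasma and 841 and 2410 in Exe plasma, and for miR-7a-1-3p they were 0 and 2 against 828 and 1611.

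**Figure D3:**
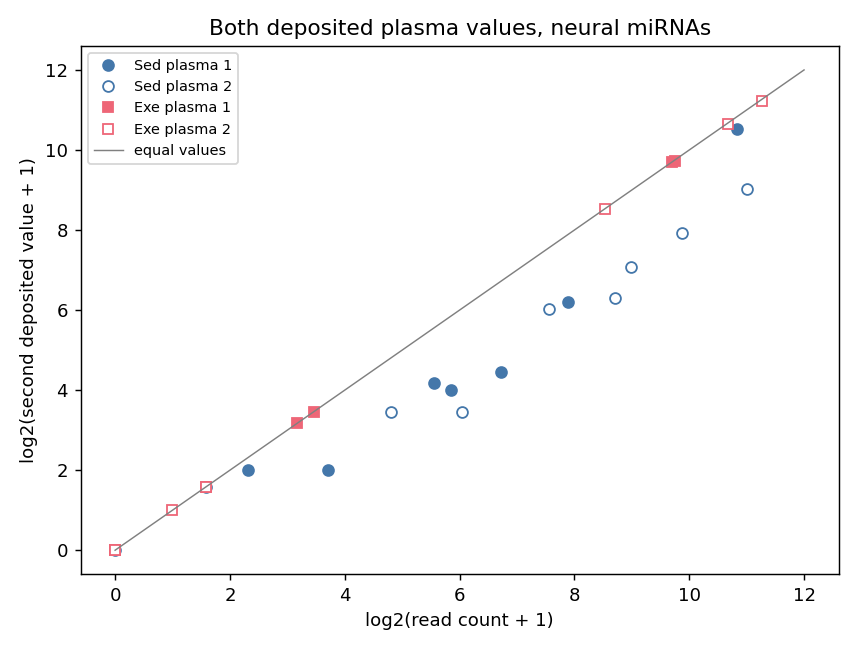
Both deposited plasma values of the 8 neural miRNAs, as log2(read count + 1) on the horizontal axis and log2(second value + 1) on the vertical axis, 1 point per miRNA and library. Exe plasma points lie on or next to the line of equal values (at most 1.03 reads per second value) and Sed plasma points with more than 2 reads lie below it.

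**Figure D4:**
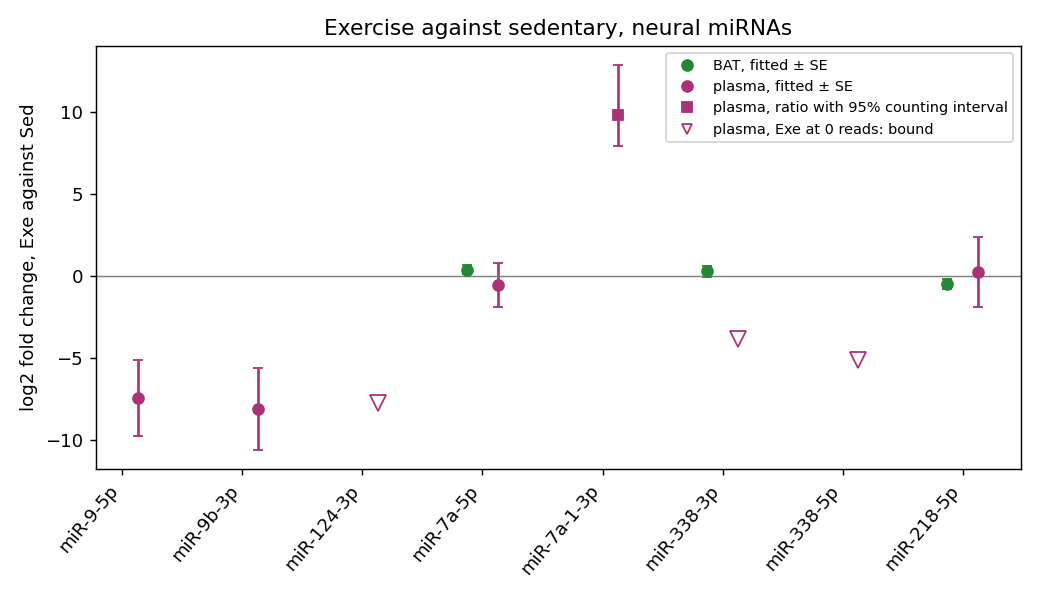
Exe against Sed in BAT (green) and plasma (purple), as log2 fold change: fitted values with their SE (circles), the ratio of miR-7a-1-3p in plasma with its 95% counting interval (square) and bounds for miRNAs with 0 reads in Exe plasma (open triangles, the change being at least this low). The 3 miRNAs tested in BAT lie between -0.49 and 0.38, and the plasma values run from -8.13 (miR-9b-3p) to 9.79 (miR-7a-1-3p).

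The exercise difference was then compared between the sources in 1 fit of all 4 groups. The difference of the log2 fold changes, plasma minus BAT, passed the edgeR test for 4 of the 6 members fitted, 1 above and 3 below 0, beside 68 of all 234 tested (29.1%, with 12.4% above and 16.7% below 0). It was 8.16 ± 1.45 for miR-7a-1-3p (SE, adjusted p = 0.00336), whose change was higher in plasma. It was below 0 for miR-9-5p at -8.10 ± 1.57 (adjusted p = 0.00501) and for miR-9b-3p at -8.57 ± 1.75 (adjusted p = 0.00587). For miR-338-3p it was -7.04 ± 1.44 (adjusted p = 0.00655), a fitted value that rests on 0 reads in Exe plasma. For miR-9-5p the BAT side held only 6 reads over Sed and 7 over Exe. The fit shares its estimate of the spread between the sources. A miRNA near 0 in some groups enters this fit through the groups where it is high, so these counts over the members are descriptions.

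The 4 calls were not equally firm. That of miR-9b-3p was lost with the replicate number as a block (-8.49, adjusted p = 0.0654), and that of miR-338-3p with a spread of its own for each source in limma-voom (-5.75, adjusted p = 0.0584). The difference did not pass for miR-7a-5p (-1.29 ± 0.91, adjusted p = 0.287) or miR-218-5p (-0.19 ± 1.50, adjusted p = 0.951). Without the second Exe plasma library that of miR-218-5p was -3.75, past the threshold (adjusted p = 0.0162), but Exe plasma is then 1 library with 10 reads, assumed to vary as the other groups do. miR-124-3p and miR-338-5p were below the filter of this fit.

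Plasma vesicles of Sed mice carried more miR-9-5p, miR-9b-3p and miR-7a-5p than BAT vesicles, relative to the other miRNAs, and less miR-7a-1-3p. These 4 of the 6 members fitted passed the edgeR test, beside 99 of 234 in all (42.3%, with 20.1% higher and 22.2% lower in plasma). The vesicle source cannot be told apart from the table, the depth or a possible batch here. CPM values from here on are on the TMM scale of the fit over both tables.

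miR-9-5p was at 5.10 to 10.4 CPM in Sed BAT and at 249 and 989 in Sed plasma, a log2 difference of 6.16 ± 1.07 (SE, adjusted p = 0.00125). With only 3, 2 and 1 reads in Sed BAT, it entered the fit through Sed plasma, so its call is a description. miR-9b-3p was at 30.6 to 64.2 CPM against 565 and 4016 (5.68 ± 1.17, adjusted p = 0.00389). miR-7a-5p was at 174 to 215 CPM against 1842 and 4376 (3.99 ± 0.67, adjusted p = 0.00119), a call lost with library size alone as the scale (1.39, adjusted p = 0.0982). That scale moved the median of all miRNAs by -2.63 on the log2 scale and changed the calls over all miRNAs from 47 higher and 52 lower in plasma to 14 higher and 138 lower.

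miR-7a-1-3p was the member lower in Sed plasma, at 0 and 3.92 CPM against 18.3 to 27.8 in Sed BAT. The ratio was 10.6 (95% counting interval 2.49 to 94.8), or 5.82 without the first and at least 3.17 without the second Sed plasma library, with a log2 difference of -3.26 ± 1.09 (adjusted p = 0.0325). It no longer passed without the first or the third Sed BAT library (adjusted p = 0.0577 and 0.0740), with a spread for each source (0.112), or with the second plasma values (0.413).

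miR-124-3p, with no read in Sed BAT, was at least 117-fold higher in Sed plasma and was not tested. The bound was 25.8-fold without the second and 191-fold without the first Sed plasma library, and 68.8-fold without the first Sed BAT library. These bounds rest on the TMM factors of the fit over both tables. As a share of all miRNA reads, miR-124-3p was at 0.00343 and 0.0232% in Sed plasma. Its 0 reads in the Sed BAT libraries allow up to 0.00218, 0.00354 and 0.00318% (exact 95% limits). miR-338-5p, also untested, was 7.28 times as high in Sed plasma in summed reads scaled by library size and TMM factor (95% counting interval 3.52 to 17.5). It was 2.52 times as high (0.948 to 7.11) without the second and 11.2 times without the first Sed plasma library. As a share of all miRNA reads, without TMM factors, its groups overlapped. These shares were 0.00118, 0.00288 and 0.00258% in Sed BAT and 0.000894 and 0.00361% in Sed plasma. The level of miR-338-3p did not differ beyond its spread (-0.26 ± 0.86, adjusted p = 0.815) except with library size alone as the scale, where it was lower in plasma (-2.92, adjusted p = 0.0259). miR-338-5p made up 75.0 and 70.7% of the reads of both miR-338 arms in Sed plasma and 18.2 to 35.7% in the BAT libraries. miR-218-5p was at 230 to 354 CPM in Sed BAT and 137 and 368 in Sed plasma (-0.15 ± 1.07, adjusted p = 0.902). That result depends on the scale, and over the alternatives its log2 difference ran from -2.80 to 0.34. As a share of all miRNA reads it was at 0.0602, 0.0538 and 0.0388% in Sed BAT. In Sed plasma that share was 0.00425 and 0.0105%, lower without overlap.

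In Exe mice the order of the sources differed by member. The test was passed by 3 of the 6 members, 2 higher and 1 lower in plasma, beside 156 of 234 in all (66.7%, with 25.6% higher and 41% lower). As in Sed, these counts over the members are descriptions. miR-7a-1-3p was at 31.6 to 60.2 CPM in Exe BAT and at 1239 and 1358 in Exe plasma (log2 difference 4.90 ± 0.91 SE, adjusted p = 0.00144). miR-7a-5p was at 210 to 304 against 1283 and 2051 CPM (2.70 ± 0.65, adjusted p = 0.00466). The latter call was lost with upper-quartile factors (1.67, adjusted p = 0.0521), library size alone (1.29, 0.121) and a minimum mean of 50 counts (1.52, 0.0834).

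miR-338-3p had 9, 13 and 12 reads in Exe BAT and none in the much deeper Exe plasma libraries, at least 28.7-fold lower in plasma (edgeR adjusted p = 0.00141). miR-338-5p was at least 11.0-fold lower, untested. Without the first Exe plasma library the bounds were 18.4-fold and 7.04-fold, and without the second 10.3-fold and 3.94-fold. miR-9b-3p was at 37.2 to 60.2 CPM in Exe BAT and 0.830 and 11.9 in Exe plasma (-2.89 ± 1.22, adjusted p = 0.0558), and miR-9-5p at 3.72 to 14.2 against 1.66 and 2.97 (-1.94 ± 1.09, adjusted p = 0.135). Neither passed, although their groups did not overlap, as was so for 79.5% of all miRNAs tested. Both passed with upper-quartile factors, library size alone, DESeq2 or the minimum mean of 50 counts. miR-9b-3p passed in 7 alternatives in all, among them without the third Exe BAT library (adjusted p = 0.0295) and without the first Exe plasma library. miR-218-5p was at 163 to 283 against 14.8 and 307 CPM (-0.34 ± 1.07, adjusted p = 0.806), and without the second Exe plasma library it was -4.08 (adjusted p = 0.00411). In the fits without an Exe plasma library the remaining one is assumed to vary as the other groups do.

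Ordered by mean CPM over the 4 groups, miR-9-5p ran from Sed plasma (619 ± 523, SD) to Exe BAT (9.47 ± 5.30), Sed BAT (8.23 ± 2.78) and Exe plasma (2.31 ± 0.93), and the BAT groups did not differ beyond their spread. miR-9b-3p had the same order, at 2290 ± 2440, 46.5 ± 12.1, 44.3 ± 17.6 and 6.35 ± 7.81 CPM. miR-7a-5p ran from Sed plasma (3109 ± 1792) to Exe plasma (1667 ± 543), Exe BAT (256 ± 47.1) and Sed BAT (195 ± 20.9), with overlap between the plasma groups. miR-7a-1-3p ran from Exe plasma (1299 ± 83.8) to Exe BAT (43.0 ± 15.2), Sed BAT (22.2 ± 4.95) and Sed plasma (1.96 ± 2.77). miR-218-5p had overlapping neighbours throughout on this TMM scale. Its means ran from 280 ± 65.3 in Sed BAT to 252 ± 164 in Sed plasma, 204 ± 68.1 in Exe BAT and 161 ± 207 in Exe plasma.

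Of 10 other arms and family relatives looked for, 4 were listed and none passed a filter. miR-9-3p, the other arm of the miR-9 hairpins, had 7 and 356 reads in Sed plasma and 0 and 1 in Exe plasma, a ratio of 506 (95% counting interval 90.3 to 20056), lower in Exe. Without the second Sed library the ratio was 29.8 (3.83 to 1343), and without the first or the second Exe library it was 258 or at least 82.7. In the first Sed plasma library miR-9-5p held 93.7% of the reads of both arms, and in the second 58.7%. miR-7b-5p, listed for plasma only, had 8 and 294 reads in Sed plasma and none in Exe plasma, at least 140-fold lower. That bound rests on the second Sed library, without which it was 11.4-fold, and it was 71.7-fold and 68.8-fold without the first or the second Exe library. miR-7b-5p thus took the direction of the miR-9 reads, while miR-7a-5p, with the same seed, overlapped between the groups. miR-124-5p had no read in plasma, and miR-218-2-3p had 1 read in BAT.

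A list of 32 other miRNAs known from the nervous system gave a mixed picture. Of these, 21 were listed in at least 1 table, and 0 of the 1 tested in BAT and 0 of the 6 tested in plasma passed the edgeR test between Exe and Sed. The plasma log2 fold change was above 0 for 3, miR-128-3p, miR-129-5p and miR-132-3p. It was below 0 for 3, miR-219a-2-3p, miR-383-5p (75 reads in Sed, 0 in Exe) and miR-153-3p (115 and 1). Groups that do not overlap were found for 5 of the 6, beside 59.3% of all tested. miR-128-3p, abundant in neurons and the one with most reads, gave 30, 24 and 10 reads in Sed BAT and 35, 43 and 45 in Exe BAT (log2 fold change 0.88 ± 0.32 SE, n = 3 per group, edgeR adjusted p = 0.0711). In plasma its reads were 11 and 251 for Sed against 2526 and 3330 for Exe (4.36 ± 1.76, n = 2 per group, edgeR adjusted p = 0.146), the direction of miR-7a-1-3p. It was higher in Exe plasma than in Exe BAT (4.28 ± 1.03, adjusted p = 0.00472).

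miR-138-5p, a brain-enriched regulator of dendritic spines, had the direction of miR-9 in plasma, at 6 and 215 reads for Sed against 1 and 0 for Exe. In BAT its reads were 11, 14 and 14 for Sed against 4, 10 and 10 for Exe (exact permutation p = 0.1). Its exercise difference was lower in plasma than in BAT (-7.04 ± 2.10, adjusted p = 0.0341), and it was lower in Exe plasma than in Exe BAT (-5.13 ± 1.71, adjusted p = 0.0221). In plasma, reads of miR-132 and miR-212, which neuronal activity induces, were found mostly in 1 Exe plasma library. miR-132-3p had 1 and 0 reads in Sed plasma and 42 and 392 in Exe plasma (ratio 311, 95% counting interval 55.5 to 12316, edgeR adjusted p = 0.145), with a ratio of 61.5 without the second and 551 without the first Exe library, and of 102 without the second and at least 69.7 without the first Sed library. For miR-212-3p the plasma reads were 1 and 3 against 0 and 1002, and for miR-212-5p 0 and 1 against 0 and 460, with the second Exe library holding them. In BAT miR-212-5p had 1, 1 and 0 reads for Sed against 2, 12 and 6 for Exe, and miR-129-2-3p 6, 6 and 3 against 15, 7 and 8 (exact permutation p = 0.1 for each). miR-219a-2-3p, an oligodendrocyte miRNA named after its values were seen, had 28 and 160 reads in Sed plasma and none in Exe plasma, at least 87.4-fold lower, or 39.7-fold without the second Sed library and 44.6-fold and 42.8-fold without the first or the second Exe library.

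The miRNAs with the most similar profiles over the 10 libraries were found among 232 candidates, as the smallest mean absolute difference of centred log2(CPM + 1) values. For miR-9-5p they were miR-200c-3p (0.73), miR-31-5p (0.74) and miR-384-5p (0.78), against a median of 2.88 over the candidates. miR-200c-3p, an epithelial marker, was at 726 CPM in Sed and 7.68 in Exe plasma on the scale of the plasma table, and miR-31-5p at 426 and 1.65. For miR-124-3p they were miR-122-3p (0.84), miR-384-5p (0.90) and miR-153-3p (1.07; median 3.45).

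For miR-7a-5p the closest profiles were those of miR-191-5p (0.45), miR-652-3p (0.48) and miR-185-5p (0.54; median 2.57). For miR-338-3p they were miR-340-5p (0.44), miR-203-5p (0.47) and miR-20a-5p (0.52; median 2.20), and for miR-218-5p miR-148a-3p (0.69), miR-154-5p (0.74) and miR-140-5p (0.75; median 2.08). All these profiles share the same 10 libraries and their depths, and the distances are descriptions.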

How the data were processed

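Small RNA from vesicles of BAT (6 libraries) and plasma (4) was extracted with Trizol and sequenced on Illumina, per the labels. Per the file headers, the authors deposited a table for each source, with 1 read count for each mature miRNA and library. The BAT table, as deposited, also holds RPM values, which equal the count over a total of 18.9 to 21.2 (in units of 1000000 reads) per library, within 0.0167 RPM. In the plasma table each deposited read count is followed by another whole number that never exceeds it and whose making is not stated. This second value was used only as an alternative. The submitters' processing notes name Bowtie 0.12.2 and the builds mm8 and mm9 without a role. For counting, strand use and filters, the settings were not given in the sources used here.

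Counts were analysed as deposited in R 4.3.3 with edgeR 4.0.16: quasi-likelihood test, TMM scaling, filterByExpr, robust dispersions and Benjamini-Hochberg adjustment over all miRNAs tested, threshold 0.05. The SE of a log2 fold change is its size over the square root of F. Each exercise comparison was fitted within its table, and the comparisons of the sources, with the difference of effects, over both tables. Adjusted p-values come from edgeR unless another tool is named. Alternatives were other scalings, filters, DESeq2 1.42.0, limma-voom (limma 3.58.1), a replicate block and leaving out each library. A limma-voom fit with separate spreads by source, and the second plasma values in the fit over both tables were added after seeing the data. A group at 0 reads gives a bound against 3 reads over the group. Where the lower group held 1 to 3 reads, a ratio of summed reads is given, with an exact 95% counting interval. The same was done for miR-338-5p between Sed plasma and Sed BAT, where Sed BAT held 8 reads. Bounds and ratios were scaled by summed library sizes, each multiplied by its TMM factor. Intervals and bounds cover counting error only, since PCR copies are not independent. Members below a filter were compared by exact permutation tests (Python 3.11.15, scipy 1.17.1), and figures were drawn with matplotlib 3.10.9.

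The members, lists and tests were chosen with earlier results of these data known. The named miRNAs are the 8 members and their listed relatives. Of the other neural list, those called in any comparison, those fitted in plasma and the 4 with most reads per table are named. Also named are defining markers and the 3 closest profiles of 5 members, among miRNAs of both tables with a mean of at least 10 counts. The fitting code was tested on simulated data.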

Additional observations from a re-analysis of the deposited data

Results flagged for a closer look

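For 4 of the neural miRNAs the exercise difference itself differed between plasma and BAT vesicles, by the edgeR test of the difference of log2 fold changes in the fit over both tables (adjusted p under 0.05), as it did for 68 of all 234 tested (29.1%). The difference, plasma minus BAT, was -8.10 for miR-9-5p, -8.57 for miR-9b-3p and 8.16 for miR-7a-1-3p. For miR-338-3p it was -7.04, a fitted value that rests on 0 reads in both Exe plasma libraries. For miR-9-5p the BAT side held only 6 reads over Sed and 7 over Exe. The fit shares its estimate of the spread between the sources, and within plasma alone edgeR called none of the 4. The call of miR-9b-3p was lost with the replicate block (-8.49, adjusted p = 0.0654) and that of miR-338-3p with a spread for each source (-5.75, adjusted p = 0.0584). In plasma all 4 had groups that did not overlap, as did 59.3% of the miRNAs tested there, where miR-338-3p was below the filter. The 4 were picked by a test that used these same counts, so this lack of overlap is a description. In BAT the means of Exe and Sed lay within 2-fold of each other.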

How the results depend on the processing

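Between 2 and 3 libraries per group limited every test here, and fewer than 20 reads per library limited most members in BAT. Over the alternatives other than leaving out a library, the single-miRNA results kept their direction and their side of the threshold in 206 cases, passed it newly in 22, lost it in 8 and turned direction in 12, and of the counts of calls 69 stayed within 1.5 times and 23 did not. With 1 plasma library left out, the lone library of its group is assumed to vary as the others do. The cause was not tested for any of these, beyond what the alternatives change by construction (miRNAs tested, libraries, scale).

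In BAT the 45 calls became 21 with a minimum mean of 50 counts and 25 with the replicate block, and 16 to 56 with 1 library left out (22, 28 and 16 without the first, the second and the third Exe library), while the neural miRNAs called were 0 throughout. In plasma the 0 calls became 4 with upper-quartile factors, 10 with library size alone, 59 with DESeq2, 40 with limma-voom, 17 without a filter, 29 with the minimum mean of 50, 1 without the 3 most abundant miRNAs, 7 with the replicate block, 11 with the second plasma values and 3 to 27 with 1 library left out (27 and 24 without the first and second Sed library, 27 and 3 without the first and second Exe library). The neural miRNAs called there became 4 with DESeq2, 5 with limma-voom, 2 with the minimum mean of 50 (miR-9b-3p and miR-7a-1-3p), 1 with the second plasma values (miR-9b-3p) and 0 to 1 with 1 library left out.

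For the difference of effects the 68 calls became 45 with the replicate block, 44 with the second plasma values, 25 with a spread for each source and 36 to 119 with 1 library left out (36 to 42 without any 1 BAT library, 102 and 119 without the first Sed and the first Exe plasma library). The 4 neural miRNAs called there became 3 with the block, the second plasma values, a spread for each source or the minimum mean of 50 (miR-9-5p with the second plasma values and miR-338-3p with the minimum mean were no longer tested), 5 without the 3 most abundant miRNAs, 6 without a filter and 4 to 6 with 1 library left out. Plasma against BAT gave 99 calls in Sed, which became 152 with library size alone and 150 with DESeq2 and 77 to 124 with 1 library left out. There 4 neural miRNAs became 2 with the second plasma values and 3 to 5 with 1 library left out. In Exe the 156 calls became 82 with the minimum mean of 50 and 131 to 205 with 1 library left out, and the 3 neural miRNAs became 5 with DESeq2 and 3 to 4 with 1 library left out.

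Direction turned mainly for miR-218-5p. In plasma it was -0.81 with upper-quartile factors, -1.34 with limma-voom, -0.16 with the minimum mean of 50, -1.31 with the replicate block, -1.0 with the second plasma values and -3.33 to 1.39 with 1 library left out. Its difference of effects was 1.17 with library size alone, 0.056 without a filter, 0.44 without the 3 most abundant miRNAs and -3.75 to 0.84 with 1 library left out. Plasma against BAT it was 0.14 in Exe without the 3 most abundant and -4.08 to 0.55 with 1 library left out (past the threshold without the second Exe plasma library), and 0.33 in Sed with the second plasma values and -1.24 to 0.34 with 1 library left out. miR-7a-5p in plasma was 0.17 with library size alone and -1.23 to 0.87 with 1 library left out, and miR-338-3p in Sed was 0.54 with the second plasma values and -2.13 to 0.44 with 1 library left out. Relative to TMM, upper-quartile factors moved the median of all miRNAs by 0.14 in BAT and -0.91 in plasma, and library size alone by -0.13 and 0.63.

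The replicate numbers were not found to pair the samples: the deviations of same-numbered Sed and Exe libraries correlated at 0.00, -0.08 and -0.12 in BAT and at -0.08 in plasma. With the number as a block the call of miR-9b-3p in the difference of effects was lost (-8.49) and no other call of a neural miRNA changed in the exercise comparisons or in that difference. For plasma against BAT the block was not run, since that pairing has no ground in the labels.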
